A study of Mus musculus with 3 samples.

Results

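The clustered histone genes of the mouse are the genes whose GENCODE M21 symbols begin with Hist1h, Hist2h, Hist3h or Hist4h. This symbol rule chose 70 of the 55536 annotated genes in the gene tables, and the rule itself uses no measured value. The 70 comprise 6 H1, 20 H2A, 19 H2B, 12 H3 and 13 H4 genes, and 67 of them are annotated as protein-coding; the others are the pseudogenes Hist1h2aj, Hist1h2al and Hist3h2bb-ps. The libraries were polyA-selected RNA-seq of primary cells labelled effector memory CD4-positive, alpha-beta T cells. The cells came from 1 male adult mouse of strain B6.SJL-Ptprca Pepcb/BoyJ, aged 5 months, and no treatment or other allele is named. All 3 libraries are labelled as technical replicates of 1 biosample, here called libraries 1, 2 and 3 after those labels. There is therefore 1 group and no condition to compare, and every spread below is a spread between these 3 libraries. A difference between libraries is not a difference between animals.

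The nucleosome core is built from the histones H2A, H2B, H3 and H4, and the linker histone H1 binds the DNA between cores. Most clustered histone genes are replication-dependent: they are transcribed mainly in S phase, and their messages end just after a short 3' stem-loop instead of in a poly(A) tail. The stem-loop is bound by Slbp, the stem-loop binding protein, which takes part in the processing, export and translation of the message. Resting memory T cells divide rarely. The replication-independent histone variants, such as H3.3, have polyadenylated messages and are made throughout the cell cycle. A polyA-selected library is built from polyadenylated RNA, so the levels below are those of the RNA that passed this selection and not of all histone messages in the cells.

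The stem-loop was searched in every annotated GENCODE M21 transcript, on the transcript's strand only, as the 16-base pattern below, in which N is any base. It occurred in 44 of the 70 genes (62.9%), against 89 of 55450 genes with a transcript sequence (0.161%), a count that includes the histone genes themselves. The match began between 21 and 58 bases after the coding end, with a median of 31 over the 44 genes. Some of the other genes are annotated only to the coding end, where no match was possible. In all 44 genes the 6 bases of one arm were complementary to the 6 bases of the other. The pattern itself fixes the pairing outside its N positions, so only the N positions of the arms could have differed. The windows below are shown because they carry the 6 distinct stem-loops found and because their genes return in the results. Each gives the 16 matched bases in capitals with up to 5 flanking bases on each side, as DNA, 5′ to 3′, from the GENCODE M21 transcripts.
Pattern searched: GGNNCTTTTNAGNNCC
Hist1h1c, H1: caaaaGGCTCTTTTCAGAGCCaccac
Hist2h2aa2, H2A: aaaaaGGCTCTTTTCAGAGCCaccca
Hist3h2ba, H2B: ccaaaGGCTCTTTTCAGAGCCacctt
Hist1h3e, H3: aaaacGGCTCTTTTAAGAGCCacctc
Hist2h2ac, H2A: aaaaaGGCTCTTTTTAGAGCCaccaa
Hist1h4m, H4: ctaaaGGCCCTTTTCAGGGCCatc
Hist1h4d, H4: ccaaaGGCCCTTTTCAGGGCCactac
Hist1h4i, H4: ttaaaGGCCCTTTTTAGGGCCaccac
Hist1h4b, H4: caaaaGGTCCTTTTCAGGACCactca

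No stem of an H4 gene occurred in another class. One form, with the bases of the Hist1h1c window, was shared by 26 genes, of which 3 were H1, 10 H2A, 8 H2B and 5 H3. The form with A in the loop, shown for Hist1h3e, was carried by 6 genes: 1 H1, 2 H2B and 3 H3. Hist2h2ac alone among the 44 had the same stem with a loop of 4 T. All 11 H4 genes with a match had other stems: 7 had that of Hist1h4m and Hist1h4d, 2 that of Hist1h4i (the other is Hist2h4) and 2 that of Hist1h4b (the other is Hist1h4j). The stem-loop of Hist1h1c lies at chr13:23739512-23739527 on the plus strand in mm10, that of Hist2h2aa2 at chr3:96239784-96239799 on the minus strand and that of Hist1h4d at chr13:23581950-23581965 on the plus strand. Each of these lies within a single exon, downstream of the coding sequence.

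The 3 libraries held between 15303744 and 17475086 expected counts over the annotated genes, and fragments are summarised as counts estimated by the submitters' quantification. All 6 markers of CD4 T cells were at a TPM (transcript abundance, scaled for length and depth) of at least 1 in each library, among them the receptor chain Trac at 6922, 3647 and 3493 TPM and Cd4 at 269, 541 and 523 TPM. Cd44, the adhesion receptor that marks memory T cells, was at 56.3, 150 and 141 TPM. Markers of naive T cells were also present: Ccr7 was at 379.7, 389 and 373 TPM and Lef1 at 235, 232 and 212 TPM. The defining markers of B cells (5 genes), of monocytes and macrophages (5) and of erythroid cells and platelets (6) were all below that level in at least 1 library, and their sums were at most 3.24, 2.71 and 7.13 TPM. Of 4 NK cell markers, Klrb1c and Eomes passed it and the list summed to between 12.8 and 15.1 TPM, while of the CD8 T cell markers Cd8b1 passed (5.65, 8.10 and 10.8 TPM) and Cd8a did not. Klra8 of the NK cell list and Ppbp and Hbb-bt of the erythroid and platelet list were at 0 in every library. What part these cells have in the histone values was not tested. Library 1 stood apart: a chi-square test of the counts called 75.8% of all genes tested over the 3 libraries and 16.7% between libraries 2 and 3 alone, so values are given below by library and the test also without library 1.

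The clustered histone genes were a small part of the RNA measured. They summed to 199, 242 and 279 TPM in libraries 1, 2 and 3, with a mean of 240 ± 39.9 TPM (SD, n = 3 libraries). Their expected counts summed to 1600, 1716 and 2257, which is 0.00916%, 0.0112% and 0.0134% of each library's counts. The sum was lowest in library 1 and highest in library 3. A gene was taken as detected where its TPM was at least 1 in each library, and 20 of the 70 genes (28.6%) were, against 44.9% of 22028 protein-coding genes. Of the 20 detected genes, 2 were H1, 4 H2A, 5 H2B, 1 H3 and 8 H4, and together they held 87.0% ± 0.815 of the summed TPM (SD, n = 3). The 5 highest genes, Hist2h2aa2, Hist1h1c, Hist1h2ap, Hist1h4m and Hist3h2a, held 49.8% ± 2.77. The median gene of the 70 had a mean TPM of 0.828, above the median of 0.480 over all protein-coding genes, although a smaller share of the histone genes was detected. In these bulk samples, fewer cells making a message and less message per cell cannot be told apart.

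In the expected counts, no read was assigned to 16 of the genes in any library. They were the H1 gene Hist1h1t, the H2A genes Hist1h2aa, Hist1h2af, Hist1h2ai and Hist1h2al, the H2B genes Hist1h2ba, Hist1h2bk, Hist1h2bf and Hist1h2bl, the H3 genes Hist1h3b, Hist1h3c, Hist1h3g, Hist2h3c1 and Hist2h3c2, and the H4 genes Hist1h4a and Hist1h4j. Hist1h1t, Hist1h2aa and Hist1h2ba are known as testis histone genes. A count of 0 allows up to 3 counts in a library, which for these genes corresponds to between 0.157 TPM for Hist2h3c1, the longest, and 1.17 TPM for Hist1h2al. Of the 16, 13 belong to groups of near copies, described further on, that are linked by shared 50-base stretches. A 0 there thus also depends on how shared reads were divided. In the separate M4 counts, also described further on, Hist1h2ai had 3 counts in library 2, and the others of the 16 had 0. A further 34 genes had between 1 and 95 counts in all and were below 1 TPM in at least 1 library. Hist1h2aj, annotated as a pseudogene, had the highest mean of these at 2.58 TPM, from 3.73, 4.02 and 0 TPM.

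H2A held the largest share of the summed TPM. Its 20 genes summed to 88.7, 91.6 and 117 TPM, a mean of 99.0 ± 15.3 TPM (SD, n = 3) and 41.4% ± 3.39 of the clustered total. H4 followed at 66.3 ± 19.8 TPM (27.2% ± 4.55), H2B at 37.9 ± 1.63 TPM (16.1% ± 3.46), H1 at 25.4 ± 9.35 TPM (10.3% ± 2.60) and H3 at 11.6 ± 1.48 TPM (4.94% ± 1.07). In each library H2A was the highest class and H3 the lowest, and H4 was second. H2B and H1 followed in that order, at 39.7 against 14.7 TPM in library 1, 37.2 against 29.6 in library 2 and 36.7 against 32.0 in library 3. Relative to its mean, H2B was the class with the smallest spread between libraries, while in TPM that of H3 was the smallest. H4 was low in library 1 at 43.9 TPM and higher in libraries 2 and 3 at 74.1 and 81.1 TPM. The shares depend on the unit: of the expected counts, which are not scaled to transcript length, H1 took 20.6% and H4 20.1%.

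**Figure D1:**
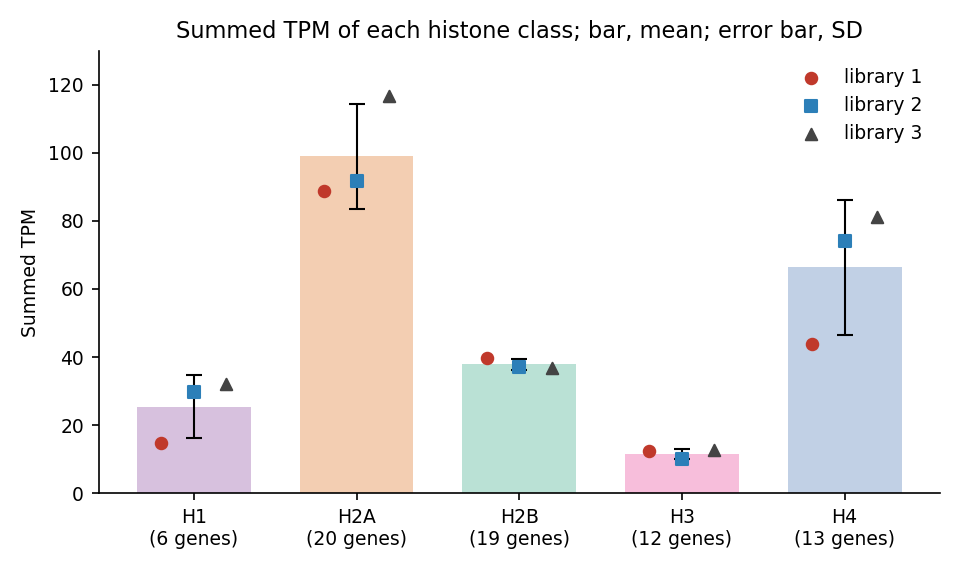
Summed TPM of the genes of each histone class, with points for the 3 libraries, bars for their mean and error bars for the SD; the axis starts at 0. H2A is highest in each library (88.7 to 117 TPM) and H3 lowest (9.95 to 12.7 TPM). In H4 and H1, and by less in H2A, library 1 lies below both other libraries.

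Among the H1 genes, Hist1h1c and Hist1h1e were detected and the other 4 were not. Hist1h1c, which encodes the linker histone H1.2, was at 12.9, 26.2 and 27.5 TPM in libraries 1, 2 and 3. Library 1 was the low one, and libraries 2 and 3 lay close to each other. The reads are 50 bases long, and of the 50-base words of its transcripts 91.5% occur in no other annotated gene. Hist1h1e, which encodes H1.4, was at 1.38, 2.81 and 3.56 TPM, again lowest in library 1. The third by level was Hist1h1b, which encodes H1.5, at 0.40, 0 and 0.56 TPM from 7 counts. The remaining H1 genes are Hist1h1a, Hist1h1d and the testis gene Hist1h1t. The 6 H1 genes encode 6 different proteins of 209 to 223 residues.

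Hist2h2aa2 was the highest of all 70 genes. It was at 34.1, 36.5 and 42.0 TPM, a mean of 37.5 ± 4.06 (SD, n = 3), and was not called different between libraries by the test described further on. It lies at chr3:96239749-96240276 on the minus strand (mm10), and none of its 50-base words is its own: all of them occur also in its copy Hist2h2aa1 and in the processed transcript Gm20634, which overlaps that copy. Hist2h2aa1 was at 0, 0 and 2.60 TPM, so the level belongs to the pair and its assignment to Hist2h2aa2 is uncertain. Gm20634 itself was at 0.33, 0.90 and 0.77 TPM, and the antisense gene Gm20632, which covers the whole of Hist2h2aa2 on the other strand, at 0.97, 0.63 and 0.30 TPM. No strand setting is given for the counting, so reads of a gene and its antisense partner may not be told apart here.

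Hist1h2ap was at 19.4, 16.3 and 30.1 TPM, highest in library 3. Only 6.93% of its words are its own, since the Hist1h2a genes of chromosome 13 are near copies: 9 of the 18 H2A genes with a full coding sequence encode 1 and the same protein. Hist3h2a was at 17.9, 18.5 and 18.8 TPM, a mean of 18.4 ± 0.439, the most even of the high genes over the 3 libraries. It lies at chr11:58954685-58956830 on the plus strand, inside the annotated bounds of Trim17 on the same strand, which was at 0, 0.19 and 0.24 TPM, and 68.5% of its words are its own. Hist2h2ac, the only gene to join a loop of 4 T to the stem of the Hist1h1c window, was at 6.63, 8.05 and 9.35 TPM.

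The H2B genes were even in sum and mixed as single genes. Hist3h2ba was at 7.68, 7.75 and 10.8 TPM, highest in library 3, and Hist1h2bc at 9.52, 7.70 and 8.08 TPM, highest in library 1. Hist2h2bb was at 7.57, 5.67 and 2.63 TPM, highest in library 1 and lowest in library 3. It lies at chr3:96269752-96270132 wholly inside the lincRNA Gm42743 on its own strand and the antisense gene Gm20628 on the other. None of its words is its own, so its count depends on how shared reads were divided. Gm42743 was at 0.34, 0.43 and 0.30 TPM and Gm20628 at 0.48, 0.62 and 0.52 TPM.

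Hist1h2bq and Hist1h2br show the splitting of reads directly. Their transcripts of 381 bases are identical in sequence, and both were given 4.84 TPM in library 1, 3.42 in library 2 and 3.15 in library 3. As genes they were at 4.95, 3.56 and 3.37 TPM and at 4.84, 3.42 and 3.16 TPM, highest in library 1 in both.

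H3 was represented by 1 detected gene, Hist2h3b, at 9.10, 4.73 and 4.40 TPM. Library 1 was the high one in this gene, against the direction of the H1 and most H4 genes. The 9 Hist1h3 genes, none of them detected alone, went the other way as a sum. They summed to 3.15, 5.22 and 8.31 TPM, lowest in library 1. The antisense gene Gm20628 covers the whole of Hist2h3b, and 79.7% of its words occur also in Hist2h3c1, Hist2h3c2 and Gm20634. The remainder occur in other genes on the opposite strand only. Hist1h3e was at 0.94, 2.43 and 2.24 TPM and missed detection in library 1 alone. Hist1h3a, the third H3 gene by level, was at 0, 1.98 and 3.04 TPM. The 12 H3 genes encode 2 proteins of 136 residues, and Hist2h3b shares its protein with 7 others.

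All 13 H4 genes encode 1 protein of 103 residues, from 12 distinct coding sequences, and 8 of them were detected, the largest number of any class. Hist1h4m was at 8.49, 26.8 and 25.2 TPM, with library 1 at the bottom and the other libraries together. Hist1h4n was at 11.1, 11.0 and 17.3 TPM. Only 10.2% and 14.4% of the words of this pair are their own, and they share most of the rest with each other. Taken as a pair they summed to 19.6, 37.8 and 42.5 TPM, so the low value of library 1 was there in the sum too. Hist1h4d was at 2.60, 10.4 and 11.9 TPM, and 89.8% of its words are its own. Hist1h4i was at 2.24, 5.58 and 9.62 TPM and Hist1h4b at 2.46, 8.40 and 5.29 TPM, both lowest in library 1. Hist1h4c was highest in library 1 at 5.84, 4.15 and 3.61 TPM. The lowest detected H4 genes were Hist1h4h at 1.19, 2.62 and 3.75 TPM and Hist2h4 at 1.92, 2.70 and 2.51 TPM. Hist4h4, the lone gene of chromosome 6, was below detection in libraries 1 and 2 at 0.26 and 0.76 TPM and at 1.20 TPM in library 3.

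**Figure D2:**
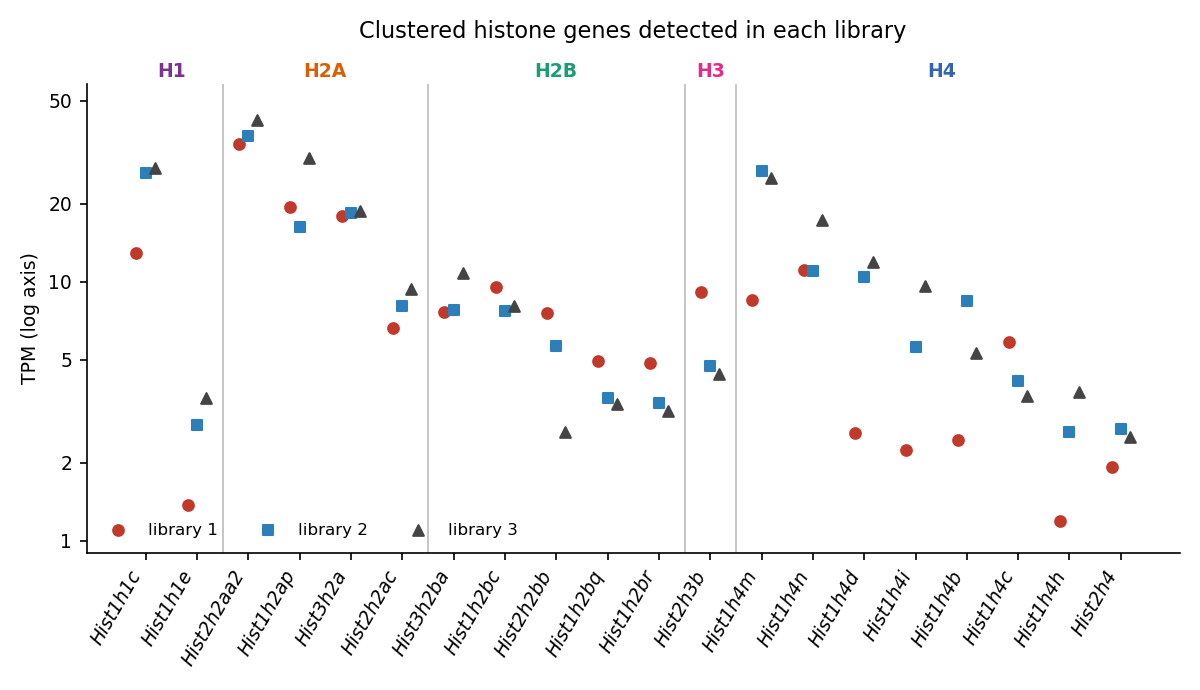
TPM on a log axis of the 20 genes at 1 TPM or more in each library, ordered by class and by mean level, with 1 symbol for each library. Library 1 lies below both others in Hist1h1c, Hist1h1e, Hist1h4m, Hist1h4d, Hist1h4i, Hist1h4b and Hist1h4h. By less it lies below both also in Hist2h2aa2, Hist3h2a, Hist2h2ac, Hist3h2ba and Hist2h4. It lies above both in Hist2h3b, Hist2h2bb, Hist1h4c, Hist1h2bc, Hist1h2bq and Hist1h2br.

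The 4 genomic locations differed in how many of their genes were detected. On chromosome 13, 13 of 56 Hist1 genes were detected, and they summed with the others to 150 ± 35.8 TPM (SD, n = 3), 61.8% ± 5.07 of the clustered total. Of these 56, 24 lie at chr13:21715763-22043676, 31 at chr13:23531050-23934851, and the processed pseudogene Hist1h2al apart from both at chr13:51202727-51203065. The 10 Hist2 genes at chr3:96219865-96270132, of which 5 were detected, held 61.9 ± 3.03 TPM or 26.2% ± 4.04. The 3 Hist3 genes at chr11:58948920-58956830, of which 2 were detected, held 27.8 ± 2.06 TPM or 11.7% ± 1.18. The sums of Hist2 and Hist3 had small spreads between libraries, whereas that of Hist1 was 112 TPM in library 1 against 155 and 183 TPM in libraries 2 and 3.

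Replication-independent histones were far above the clustered ones. A list of 17 such genes summed to 8228, 4179 and 4271 TPM, so that the clustered genes made 2.36%, 5.48% and 6.13% of all histone TPM, a mean of 4.66% ± 2.01 (SD, n = 3). Of the 17 genes, 9 were detected. H3f3b, 1 of the pair of genes that encode H3.3, was at 5614, 1696 and 1645 TPM, and its partner H3f3a at 237, 785 and 860 TPM. The pair thus moved in opposite directions, H3f3b high and H3f3a low in library 1. H2afz, which encodes H2A.Z, was at 1371, 1007 and 1079 TPM, and H2afy, the macroH2A gene, at 181, 197 and 197 TPM. Cenpa, the centromeric H3 variant, was at 159, 189 and 188 TPM. H2afv and H2afj, genes of other H2A variants, were at 258, 112 and 117 TPM and at 260, 115 and 115 TPM. H2afx, whose protein is phosphorylated at DNA breaks, was at 62.5, 47.9 and 41.3 TPM, and H1f0, the linker histone of resting and differentiated cells, at 84.5, 29.0 and 27.4 TPM. Undetected were H1fnt, H1foo, H1fx, H2afb1, H2afb2, H2afb3, H2afy2 and Hils1, most of them known from germ cells. The low clustered share of library 1 therefore came with the highest sum of the other histones.

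Most of the machinery around histone messages was present. Of 25 genes for histone gene transcription and 3' end processing, 24 were detected, with Zfp473 the exception. Slbp was the highest at 390, 156 and 145 TPM, followed by the nucleoporin Nup98 and the cleavage factor gene Cpsf3. All 10 annotated genes of a list for histone message decay were detected, with Ssb, Tut4 and Tut7 the highest. Tut4 and Tut7 encode uridylyl transferases that act on RNA 3' ends. Of 26 annotated histone chaperone genes, 25 were detected, with Npm1, Nap1l4 and Rbbp4 the highest and Chaf1a, a subunit of the replication-coupled assembly factor, undetected. Of 22 genes of S phase and mitosis, 14 were detected, led by Slbp, Pcna and Mcm6. Those not detected included Aurkb, Birc5, Ccna2, Cdc6, Plk1, the proliferation marker Mki67 and the mitotic cyclin gene Ccnb1. These lists overlap in Slbp and were tested only gene by gene: between libraries 21 of 25, 10 of 10, 23 of 26 and 14 of 20 genes tested differed, in the order given, and 9 of 9 replication-independent histones did, against 75.8% of all genes tested by the chi-square test described next. These counts are not read as particular to the lists.

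Whether the clustered genes differed between libraries beyond counting error was tested in the 24 of the 70 genes with at least 30 counts in all. The test was a chi-square test of the rounded counts against library totals, run on all 13177 genes that passed the same minimum, with Benjamini-Hochberg adjustment. It called 11 of the 24 genes, against 75.8% of all genes tested. The 11 were Hist1h1c, Hist1h1e, Hist1h2ap, Hist1h4b, Hist1h4d, Hist1h4i, Hist1h4m, Hist1h4n, Hist2h2bb, Hist2h3b and Hist4h4. The share called was below that of all genes with this minimum. With a minimum of 10 counts it was also below, at 24 of 42 genes against 66.9% of all genes, and with no minimum beyond 1 count it was above, at 24 of 54 against 35.8%, so no order between the sets is read from it. The test covers counting error only, calls genes with more counts more readily, and was not matched on counts between the sets. The statistic was also divided by 19.9, the median overdispersion of all genes tested. The chi-square test then called none of the 24, against 21.6% of all genes tested. None had an unadjusted p under 0.05 in it either (the smallest was 0.107, for Hist1h1c). The divisor was the same for all genes, and a gene with few counts can hardly pass it whatever its split. This 0 is therefore not read as evenness between libraries.

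A called gene was counted as lower or higher in library 1 where that library lay outside both others and at least 1.5-fold from their geometric mean. By this rule 7 of the 24 genes were lower in library 1, against 28.0% of all genes tested, and 2 were higher, against 18.4%. The share of lower genes was near that of all genes, so the number is not read as particular to the clustered genes. The 7 lower genes were both detected H1 genes and 5 H4 genes. Hist1h4d had the largest difference, with a log2 ratio of library 1 to the others of -2.08 ± 0.278 (counting SE) and a chi-square adjusted p of 3.1e-15. Hist4h4 was at -1.81 ± 0.550, Hist1h4i at -1.71 ± 0.388, Hist1h4m at -1.58 ± 0.277 and Hist1h4b at -1.42 ± 0.523. The counting SE and the chi-square test leave out the uncertain division of shared reads. The deposited posterior standard deviation of the count, described further on, measures it. In library 1 it was 14.1 for a count of 32.2 in Hist1h4m and 6.23 for 9.19 in Hist1h4b. In Hist1h4d it was 2.83 for 30.4. In H1, Hist1h1c was at -1.02 ± 0.112 with a chi-square adjusted p of 1.3e-19, and Hist1h1e at -1.14 ± 0.305. Both higher genes, Hist2h3b at 1.06 ± 0.320 and Hist2h2bb at 1.01 ± 0.407, lie on chromosome 3 under the antisense gene Gm20628 and have no words of their own. All 9 kept their side of the 1.5-fold limit with sizes scaled by TMM or by the median of ratios, which shifted log2 ratios by 0.06 and 0.16.

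Over the 24 genes, the log2 ratio of library 1 to the others had a median of -0.31, and over 13081 genes tested with counts in each library one of -0.10. By class it was -1.08 over 2 H1 genes, -0.16 over 4 H2A, 0.31 over 7 H2B, -0.09 over 2 H3 and -1.46 over 9 H4 genes. These medians count near copies as separate genes. For the summed TPM of each class the log2 ratio was -1.06, -0.22, 0.10, 0.12 and -0.82 in the same order. The H2A genes Hist2h2aa2 and Hist3h2a were not called, at -0.16 ± 0.133 and -0.01 ± 0.0891, and with the median-of-ratios scaling these values turned sign. Of the 11 genes called, 10 were called also without library 2 (Hist1h4b was not) and 7 without library 3 (Hist1h2ap, Hist1h4n, Hist2h2bb and Hist4h4 were not called or fell under the minimum). Without library 1 the test called 2 of 20 genes, Hist1h2ap and Hist1h4i, against 16.7% of all genes tested in libraries 2 and 3 alone. Hist1h2ap was at 16.3 and 30.1 TPM in these libraries and Hist1h4i at 5.58 and 9.62 TPM, so both were higher in library 3. At the same time Slbp was 390 TPM in library 1 against 156 and 145, and H3f3b was high in the same library; their part in the values of H1 and H4 was not tested.

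**Figure D3:**
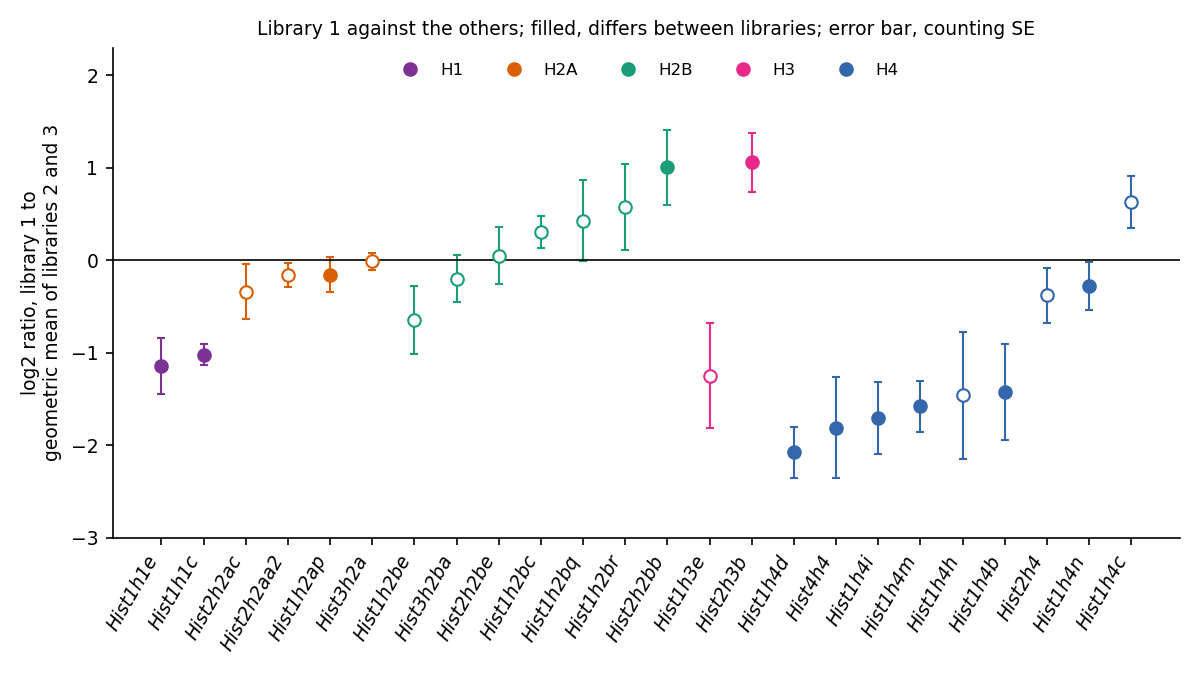
Log2 ratio of library 1 to the geometric mean of libraries 2 and 3 for the 24 genes with at least 30 counts, by class; error bars are the counting standard error, and filled points are genes the chi-square test called. Most H4 points and both H1 points lie below 0, from -2.08 for Hist1h4d, while 5 of 7 H2B points lie above it.

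Near-identical copies limit how far a level belongs to 1 gene. The posterior standard deviation of the count, which the deposited tables give for each gene, was 10.02% of the expected count in the median of the 24 genes and 0.0175% in the median of all genes with at least 30 counts. It was over 20% in 7 of the 24 genes, against 4.24% of all genes. The 5 highest were Hist1h2br at 53.2%, Hist1h2bq at 46.8%, Hist1h4n at 40.9%, Hist1h4h at 36.5% and Hist1h4b at 36.3%. The low end held Hist4h4 at 0%, Hist2h2be at 0.294% and Hist1h1c at 0.607%. Hist2h2aa2 was at 8.08% although it has no words of its own, so a small posterior standard deviation did not always go with an unshared sequence. The 18 genes that stayed within 20% in each library, those with 0 or few counts included, summed to 111, 135 and 145 TPM.

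Sums over near copies are less exposed to this division of reads. A pair of genes was joined where they share at least 50% of the words of the one with fewer, and joined pairs were chained into groups, a grouping chosen after the values were seen, which gave 7 groups of 46 genes. The group of 12 Hist1h2a genes summed to 27.6, 26.9 and 42.4 TPM and was highest in library 3, as Hist1h2ap was alone. The group of 9 Hist1h3 genes summed to 3.15, 5.22 and 8.31 TPM, lowest in library 1. That of Hist2h3b, Hist2h3c1 and Hist2h3c2, at 9.10, 4.73 and 4.40 TPM, was highest there. The group of 11 Hist1h2b genes summed to 22.9, 19.3 and 20.97 TPM and that of 6 H4 genes (Hist1h4a, Hist1h4b, Hist1h4c, Hist1h4h, Hist1h4j and Hist1h4k) to 16.03, 15.9 and 12.7 TPM. In the latter, the low value of Hist1h4b in library 1 was absent from the sum: Hist1h4k, at 6.54, 0.78 and 0 TPM, and Hist1h4c were highest in library 1. Hist1h4d, Hist1h4i, Hist2h4 and Hist4h4 belong to no group.

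The small count table made on the M4 annotation gives a second reading of the same libraries. It holds 65 of the 70 genes, with 370, 418 and 506 counts over them. Over all genes its total was 31.1% of the expected counts. Over the 13 histone genes with more than 50% own words it was 31.2%, and over the 10 with fewer it was 6.03%. These are ratios of sums. Gene by gene the percentage ran from 5.06% to 74.2% over the 13 and from 0% to 53.5% over the 10. The 2 readings thus differ widely also for single genes with mostly own words. Hist2h2aa2, Hist1h2ap, Hist1h2bq and Hist1h2br had 0 counts in the small table against 538, 288, 45 and 38 expected counts in all. The sources used here do not say how the small table treated reads with several matches. The chi-square test on its counts called 4 of 10 genes tested, against 68.4% of all genes: Hist1h1c at 59, 106 and 112 counts, Hist1h1e at 18, 25 and 38, Hist1h4d at 20, 54 and 61, and Hist4h4 at 5, 12 and 29. All 4 were lower in library 1 there too, and none of the 4 has less than 68.0% own words.

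**Figure D4:**
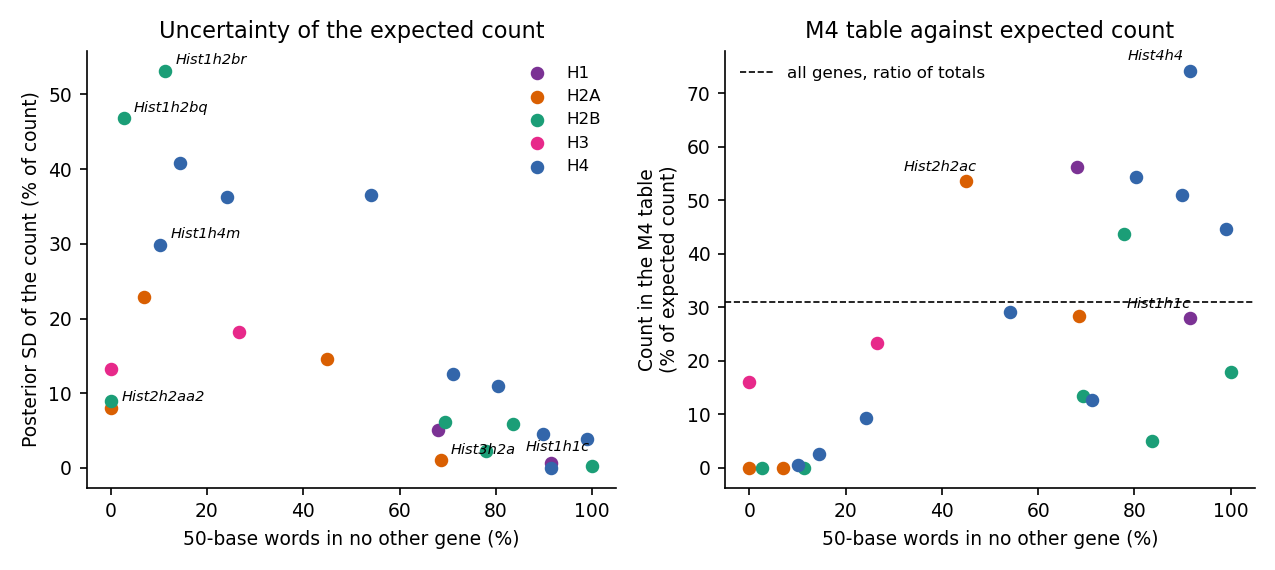
Share of each gene's 50-base words found in no other gene, against the posterior SD of its expected count (left, 24 genes) and against its count in the M4 table as a percentage of the expected count (right, 23 genes); the dashed line is the same percentage for all genes, 31.1%. On the left the values above 20% lie at low shares of own words, with Hist1h4h (54.2% own words) the farthest right, and on the right 4 genes with few own words lie at 0%.

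The annotated transcripts differ in how far they run past the stem-loop. A transcript was taken to run past where at least 100 bases follow the match, as they do in 22 genes, of which 8 were detected. In another 22 genes, of which 7 were detected, the transcript ends within 100 bases of the match. The other 26 genes, of which 5 were detected, have no match in their annotated transcripts. Some of the 26, such as Hist1h4k with 312 bases and Hist1h3h and Hist1h3i with 411, are annotated only to the coding end. No match was possible in them, so the lack of a match is not read as lack of a stem-loop. The transcripts that run past held 28.0%, 34.7% and 35.1% of the clustered TPM, a mean of 32.6% ± 3.98 (SD, n = 3). Those that end near the stem-loop held 48.1% ± 4.12 and those without a match 19.3% ± 7.71. Of the expected counts, the transcripts that run past held 53.4%, 61.4% and 60.4%; the median gene length was 1255 bases in the first set and 484 in the second. Where only part of a long annotated transcript is present in the RNA, its TPM is too low for that part.

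Hist1h1c, with 840 annotated bases after its stem-loop, Hist3h2a with 1643 and Hist1h4d with 770 were the highest genes of their classes among those that run past. Hist2h2aa2 ends 35 bases after the match, Hist1h4n 31, and Hist1h2ap and Hist1h4m 3 bases after it. The transcript of Hist1h4m is 402 bases long in all. These short transcripts were thus among the highest by TPM in polyA-selected libraries, although their annotated ends lie near the stem-loop. The tables give no read positions, so where their 3' ends lay in these cells was not tested. The detected genes without a match were Hist1h2bc, Hist1h2bq, Hist1h2br, Hist2h2bb and Hist2h3b, of which Hist2h2bb, like the identical pair, has a transcript of 381 bases.

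**Figure D5:**
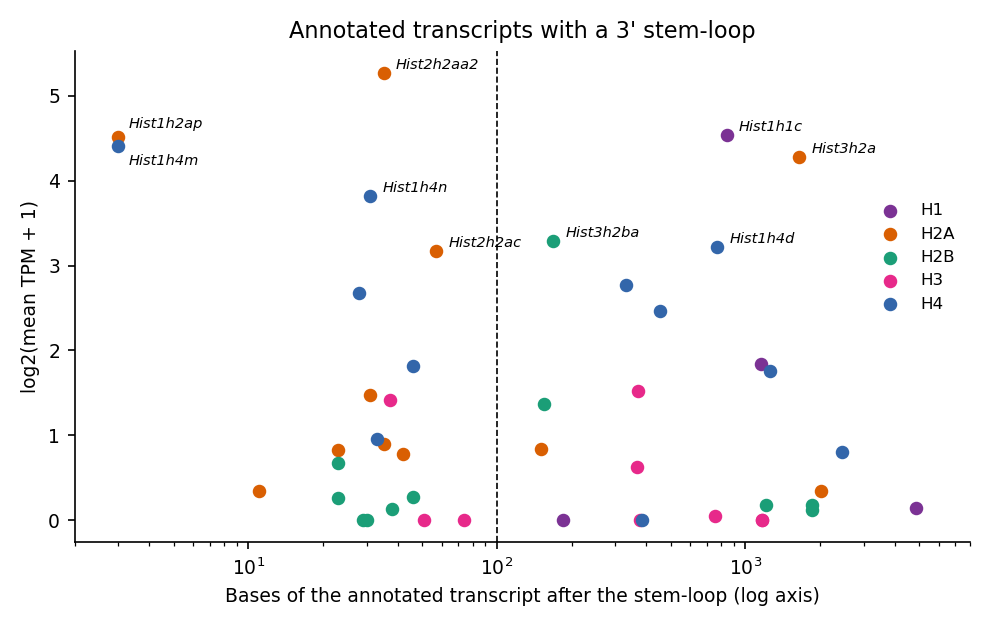
Mean level as log2(TPM + 1) of each annotated transcript with a stem-loop against the number of annotated bases after it (log axis), coloured by class; the dashed line marks the limit of 100 bases. High transcripts lie on both sides: Hist2h2aa2, Hist1h2ap, Hist1h4m and Hist1h4n at the left, Hist1h1c, Hist3h2a and Hist1h4d at the right.

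The promoters of 3 genes are shown because the histone classes differ in their promoter letters; whether these letters bear on the levels was not tested. RefSeq promoter windows of GRCm38.p6, 250 bases before to 50 after the start, were matched for 62 of the 70 genes. Each was searched on both strands for 4 motifs. The first is the CCAAT box, the second the TATA box as TATAAA. The others are the octamer ATTTGCAT, known from H2B promoters, and the box AAACACA, known from H1 promoters. No motif contains another. The 250 bases before the start of 3 genes follow, with matches in capitals, a match on the other strand being written as its reverse complement. Hist1h1c is at chr13:23738557-23738806 on the plus strand, Hist2h2ac at chr3:96220881-96221130 on the minus strand and Hist1h4m at chr13:21811496-21811745 on the plus strand.
Hist1h1c: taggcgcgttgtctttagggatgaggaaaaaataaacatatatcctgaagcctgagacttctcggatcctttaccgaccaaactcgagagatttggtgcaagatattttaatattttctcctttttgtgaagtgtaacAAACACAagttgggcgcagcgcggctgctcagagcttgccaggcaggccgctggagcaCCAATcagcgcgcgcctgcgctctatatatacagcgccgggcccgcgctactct
Hist2h2ac: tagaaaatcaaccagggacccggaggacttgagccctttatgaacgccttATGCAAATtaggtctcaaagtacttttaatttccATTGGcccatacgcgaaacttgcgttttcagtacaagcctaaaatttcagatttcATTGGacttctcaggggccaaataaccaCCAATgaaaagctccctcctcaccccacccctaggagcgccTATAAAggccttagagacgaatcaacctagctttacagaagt
Hist1h4m: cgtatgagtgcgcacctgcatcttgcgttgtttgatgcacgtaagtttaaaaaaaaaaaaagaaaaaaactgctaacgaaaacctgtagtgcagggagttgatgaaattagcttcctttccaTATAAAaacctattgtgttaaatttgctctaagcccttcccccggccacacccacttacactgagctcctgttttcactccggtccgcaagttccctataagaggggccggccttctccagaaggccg

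CCAAT was present in all 6 H1, 18 H2A, 16 H2B and 10 H3 genes matched and in 3 of 12 H4 genes, against 37.4% of 32851 promoters. AAACACA was present in 5 of 6 H1 genes, in 2 H2A and 2 H2B genes and in no H3 or H4 gene, against 7.18% of all promoters. ATTTGCAT was present in 7 of 18 H2A and 7 of 16 H2B genes and in none of the others, against 1.74%. These are not 14 separate sites: 10 pairs of an H2A and an H2B gene stand head to head with windows that share 220 to 279 bases, and in 3 of the pairs both genes were counted for ATTTGCAT. TATAAA was present in 4 of 6 H1, 11 of 18 H2A, 8 of 16 H2B, 4 of 10 H3 and 8 of 12 H4 genes, against 13.6%. Of the H4 genes lower in library 1, Hist1h4d holds CCAAT and TATAAA, Hist1h4i and Hist1h4m hold TATAAA alone, and Hist1h4b and Hist4h4 hold none of the 4 motifs. A match was counted at any position in the window and on either strand, so it says only that the letters are there. In the Hist1h4m sequence above, TATAAA stands far from the start. No match says only that these letters are not in the window.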

How the data were processed

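PolyA-selected RNA-seq of 1 biosample was deposited as 3 libraries labelled technical replicates. Per the file headers, the authors' gene and transcript tables hold expected counts, TPM, FPKM, posterior mean counts and TPM, and a posterior standard deviation of the count. The notes deposited with the tables name mm10 and GENCODE M21 for them, and GENCODE M4 for a small table of whole-number counts. Expected counts and posterior values, as deposited by the authors, are estimates that divide reads among genes with shared sequence. For aligner, quantifier, strand setting and multiply matching reads: not given in the sources used here.

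From these, expected counts were rounded to whole numbers and tested for homogeneity over the 3 libraries (Pearson's chi-square, Benjamini-Hochberg over all genes with at least 30 counts, threshold 0.05). The libraries held 15303744 to 17475086 counts; totals served as library sizes. TMM factors (edgeR 4.0.16 in R 4.3.3, no edgeR test) and median-of-ratios factors were alternatives, as were other minimums, units, posterior means, M4 counts, an overdispersed statistic, and leaving out each library. With 1 group, edgeR's quasi-likelihood test has no contrast. TPM and FPKM of the authors' tables were used as deposited, with no pseudocount except 1 in log2(TPM + 1). Words of 50 bases, the stem-loop and coding sequences were read from GENCODE M21 transcripts, and promoters from RefSeq (GRCm38.p6), with Python 3.11.15, pandas 2.3.3 and scipy 1.17.1. The chi-square test was tried on simulated counts that held counting error alone. They lacked the overdispersion of these libraries, so the trial does not show how the test behaves here. Technical libraries, p-values and intervals cover counting error only, not the division of shared reads or variation between mice.

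Genes named are all detected members, the 3 highest of each class, those with 0 counts, the called genes with the largest ratios in each direction (up to 5), the 5 with the largest posterior standard deviation over count, and of each related list the 3 highest, the undetected and every detected replication-independent histone; others named to explain a group, a pair or a motif were chosen after their values were seen. The members follow from the symbol rule alone, but the rule and the lists were chosen with earlier results of these data known. Some genes of the related lists are not reported here.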

Additional observations from a re-analysis of the deposited data

How the results depend on the processing

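The number detected was 9 at a TPM of at least 5 and 31 with posterior mean TPM, against 20; it stayed within 1.5 times at a TPM of 0.5, with FPKM, and without any 1 library (21 to 24). The number of genes differing between libraries, 11 of 24, was 24 both with at least 10 counts (of 42 tested, against 66.9% of all genes) and with no minimum beyond 1 count (of 54, against 35.8%), 0 with overdispersion (against 21.6%) and 4 on M4 counts (of 10, against 68.4%); without 1 library it ran from 2 (without library 1) to 11, and was 7 without library 3. In the same order of settings, 4, 4, 0 and 0 genes were higher in library 1 and 11, 12, 0 and 4 lower. TMM, the median of ratios and posterior mean counts kept all 3 numbers within 1.5 times. With overdispersion all 9 named ratios of library 1 lost their calls, under a divisor that genes with few counts can hardly pass.

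Without the genes whose posterior standard deviation exceeds 20% of the count in any library, the shares of the summed TPM were 19.1% for H1, 49.3% for H2A, 0% for H3 and 12.1% for H4; fewer genes enter, and no H3 gene is left with a level. By expected counts the shares were 20.6% for H1, 3.37% for H3 and 20.1% for H4. FPKM, posterior mean TPM and leaving out a library moved no class share by over 1 SD. The share of transcripts that run past the stem-loop was 28.0% with a limit of 300 bases and 58.4% by counts, against 32.6%. The median of log2(TPM + 1) over the 70 genes, 0.77, was -0.72 with a pseudocount of 0.1, 1.20 over genes with at least 1 count, and 0.66 to 0.91 without 1 library. No paired analysis was possible because there is 1 group. At 1600 to 2257 counts over all 70 genes in a library, genes below 30 counts entered only the tests with lower minimums.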

Other observations

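Genes that handle histone messages and proteins were found among those higher and among those lower in library 1, in shares not read as particular to these lists. Of the 25 genes for histone gene transcription and 3' end processing tested by the chi-square test, 4 were higher in library 1 by at least 1.5-fold and 7 were lower, and of the 26 chaperone genes 7 were higher and 8 lower, against 18.4% of all genes tested higher and 28.0% lower. The genes that follow were chosen after their values were seen. Lsm10, a subunit of the U7 particle that cuts histone pre-messages, was at 30.1, 16.4 and 12.1 TPM, whereas its partner Lsm11 was at 4.73, 5.82 and 5.46 TPM and was not called. The scaffold gene Sympk was at 4.09, 15.3 and 15.8 TPM, low in library 1 as Hist1h4d was. Among chaperones of H3 and H4, Asf1a was at 138, 60.2 and 58.4 TPM and Asf1b at 17.2, 6.55 and 5.72 TPM, both high in library 1, and Nasp was low there at 22.8, 72.0 and 73.3 TPM. Npat, the coactivator of replication-dependent histone genes, was at 12.8, 15.3 and 15.4 TPM, within 1.5-fold in all 3 libraries.

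The cell cycle genes gave a mixed reading beside these levels. Genes of DNA replication were present, with Pcna at 186, 153 and 160 TPM and Mcm6 at 106, 69.7 and 63.8 TPM, while Top2a was at 3.33, 3.47 and 3.56 TPM and Cdk1 at 2.88, 3.13 and 3.40 TPM, and Mki67 and Ccnb1 were below 1 TPM in at least 1 library.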
